A study of Mus musculus with 21 samples.

Results

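Formin 2, the Spire proteins and the vesicles on which they sit build an actin network in the oocyte, and this account follows the 6 genes of that machinery, *Fmn2*, *Spire1*, *Spire2*, *Myo5b*, *Rab11a* and *Myo10*. They were taken by name from the 54232 genes counted in the series, and all 6 were found by their Ensembl identifiers. Poly(A) RNA was sequenced from fully grown mouse oocytes at the germinal vesicle stage, in 21 libraries of 3 oocytes each. The study changed the dose of *Kif11*, a kinesin that pushes spindle poles apart, and the question asked here is whether the RNA of the actin genes differed between the genotypes and Cre drivers.

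The mice had a C57BL/6 background and were 3 to 4 months old, and were stimulated with gonadotropin 48 h before the oocytes were collected. The control, *Kif11* wt/fl without Cre (4 libraries), carried a wild-type and a floxed allele. In wt/fl Spo11-Cre (5 libraries) a transgenic Cre that acts from early meiotic prophase removes the floxed allele. The fl/del oocytes (4 libraries) combined a floxed allele with a constitutively deleted allele and had no Cre, and fl/del Spo11-Cre (4 libraries) added the Cre to that genotype. Both alleles were floxed in the late driver groups, fl/fl with Gdf9-Cre or with Zp3-Cre (2 libraries each), and the Cre was driven by the promoter of a growth factor or of a zona pellucida gene that growing oocytes express. All genotypes therefore carried at least a floxed allele, and no library was wild type for both alleles. Each mouse gave 1 or 2 libraries, so libraries of a genotype were not all from separate animals, and p-values measure the spread between libraries. The fl/fl libraries differ from the other 17 in genotype, in Cre driver and as a set at the same time, and these cannot be told apart.

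In the mouse oocyte the meiotic spindle forms near the cell centre without centrosomes and is moved to the cortex by actin filaments instead of astral microtubules. Formin 2 and the Spire proteins are actin nucleators that work together, and they sit on vesicles that carry the small GTPase RAB11A. The motor myosin Vb walks along the filaments with these vesicles, so that vesicles and filaments organise each other into a mesh that fills the cytoplasm. Oocytes without formin 2 keep the spindle in the centre and fail to extrude a normal polar body.

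Levels are given as CPM, the counts of a gene over all its exons scaled to 1000000 counts per library, when the same gene is followed between libraries. Total counts ranged from 7205010 to 18454549 per library, with 7801470 to 10759741 for fl/fl. *Kif11* was at 23.8 to 43.2 CPM in wt/fl, 17.6 to 30.5 CPM in wt/fl Spo11-Cre and 7.49 to 14.6 CPM in fl/del. It was at 1.08 to 2.70 CPM in fl/del Spo11-Cre and 4.27 to 7.95 CPM in fl/fl. Every library of fl/del, fl/del Spo11-Cre and fl/fl thus lay below wt/fl, as the labels imply. The wt/fl Spo11-Cre libraries overlapped wt/fl, with means of 24.6 CPM and 34.5 CPM. By edgeR the log2 fold change was -0.47 (confidence interval -0.86 to -0.07, unadjusted p = 0.0207, adjusted p = 0.237). *Kif11* was thus lower on average with Spo11-Cre, but the difference did not pass the adjustment over all genes. The paper counted only the first exon of *Kif11* and reports a reduced level in this genotype. The summed level of 12 oocyte markers was between 19966 and 27766 CPM. That of 15 follicle cell markers was between 70.4 and 124 CPM and came mostly from *Cyp19a1* and *Nr5a2*, while *Foxl2* and *Tnfaip6* had no count in any library. Less RNA per cell and fewer contributing cells cannot be told apart in such pooled oocytes.

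The 6 genes differed widely in level. Between genes, levels were compared as the authors' TPM, which corrects for the merged length of all exons of a gene and not for that of a single transcript. *Rab11a* was at 230 TPM (SD 38.8, n = 21), higher than 94.5% of the 13992 genes with a mean of at least 1 TPM. *Spire1* was at 71.7 TPM (SD 10.5), *Myo5b* at 48.5 TPM (SD 6.65) and *Fmn2* at 41.9 TPM (SD 7.87). *Myo10* was at 23.6 TPM (SD 4.13) and *Spire2* at 9.72 TPM (SD 2.92), close to the middle of the expressed genes at a percentile of 50.2. This order held within each of the 21 libraries for every pair of neighbours but *Myo5b* and *Fmn2*, of which *Myo5b* was the higher in 16 of 21 libraries. The vesicle GTPase was thus the most abundant message of the machinery, and *Spire2* the least abundant.

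Of the nucleators, *Fmn2* (ENSMUSG00000028354, GRCm38 chromosome 1, 174501825 to 174822729, plus strand) encodes the formin itself. It was at 115, 118, 160 and 105 CPM in wt/fl and at 124, 140, 132, 124 and 172 CPM in wt/fl Spo11-Cre. Without Cre, fl/del was at 126, 129, 139 and 132 CPM, and fl/del Spo11-Cre was at 126, 158, 114 and 135 CPM. With the late drivers it was at 149 and 129 CPM (fl/fl Gdf9-Cre) and at 233 and 137 CPM (fl/fl Zp3-Cre). The groups overlapped throughout, and a single library, fl/fl Zp3-Cre replicate 1, stood above all 17 libraries of the Spo11-Cre background. Its CV over 21 libraries was 19.6%.

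*Spire1* (ENSMUSG00000024533, chromosome 18, 67488209 to 67610790, minus strand) encodes the more abundant Spire nucleator. It was at 235, 220, 262 and 238 CPM in wt/fl and at 224, 244, 179, 217 and 215 CPM in wt/fl Spo11-Cre. The fl/del libraries had 271, 199, 268 and 229 CPM, and those with Spo11-Cre added had 182, 202, 206 and 215 CPM. The fl/fl libraries had 301 and 217 CPM with Gdf9-Cre and 237 and 271 CPM with Zp3-Cre. All 4 fl/del Spo11-Cre libraries lay below all 4 wt/fl libraries, as 1.96% of all genes tested did, and below all 4 fl/fl libraries, as 4.03% did. The gap to fl/fl was narrow, from 215 CPM (fl/del Spo11-Cre replicate 4) to 217 CPM (fl/fl Gdf9-Cre replicate 2). CPM lacks the rescaling of libraries used in the tests below, with factors of 1.016 and 1.041 for these libraries. Division by the factors reverses their order, so this separation from fl/fl holds for CPM only.

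*Spire2* (ENSMUSG00000010154, chromosome 8, 123332713 to 123369515, plus strand), the second Spire gene, was the member with the fewest counts, between 39 and 213 per library. It was at 10.8, 16.7, 7.43 and 15.0 CPM in wt/fl and at 9.77, 15.3, 9.10, 8.38 and 7.33 CPM in wt/fl Spo11-Cre. Levels in fl/del were 10.7, 6.92, 5.41 and 6.30 CPM, whereas the fl/del Spo11-Cre libraries were nearly equal, at 10.5, 10.2, 11.2 and 10.9 CPM. The fl/fl libraries had 8.46 and 9.03 CPM with Gdf9-Cre and 12.3 and 9.53 CPM with Zp3-Cre. Its CV over 21 libraries, 29.2%, was the largest of the 6 genes. Of the 4 fl/del libraries, 3 lay below all wt/fl libraries, and the share of all genes with such a pattern was not counted. The lowest of them, replicate 3, had 39 counts.

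On the vesicle side, *Myo5b* (ENSMUSG00000025885, chromosome 18, 74440936 to 74771493, plus strand) encodes the motor. It was at 218, 230, 198 and 201 CPM in wt/fl and at 187, 185, 183, 190 and 139 CPM in wt/fl Spo11-Cre, with no overlap between these groups. Of all genes tested, 2.82% were lower in wt/fl Spo11-Cre without overlap. In fl/del it was at 203, 207, 183 and 212 CPM, and in fl/del Spo11-Cre at 198, 178, 211 and 215 CPM. The fl/fl libraries had 229 and 151 CPM with Gdf9-Cre and 223 and 162 CPM with Zp3-Cre. Each late driver thus gave a high and a low library, and both groups spanned most of the range of the other 17 libraries.

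*Rab11a* (ENSMUSG00000004771, chromosome 9, 64715299 to 64737758, minus strand), which encodes the GTPase that marks the vesicles, had the narrowest relative range of the 6 genes in the Spo11-Cre background. It was at 258, 292, 264 and 259 CPM in wt/fl and at 235, 248, 261, 278 and 270 CPM in wt/fl Spo11-Cre. The fl/del libraries had 260, 280, 267 and 272 CPM, and those with Spo11-Cre added had 242, 269, 250 and 291 CPM. With the late drivers it was at 375 and 420 CPM (fl/fl Gdf9-Cre) and at 365 and 325 CPM (fl/fl Zp3-Cre). All 4 fl/fl libraries were above all 17 other libraries, whose highest was 292 CPM. Of 23225 genes tested in the 21 libraries, 0.857% were higher in every fl/fl library than in every other library, and 0.362% were lower.

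*Myo10* (ENSMUSG00000022272, chromosome 15, 25622525 to 25813673, plus strand) encodes an unconventional myosin known from filopodia, with a tail that can bind microtubules. It was at 75.7, 98.7, 79.6 and 91.9 CPM in wt/fl and at 84.9, 90.6, 99.2, 94.7 and 112 CPM in wt/fl Spo11-Cre. Without Cre, fl/del was at 89.6, 82.8, 134 and 144 CPM, and fl/del Spo11-Cre was at 90.8, 97.6, 101 and 104 CPM. The fl/fl libraries had 97.8 and 85.6 CPM with Gdf9-Cre and 129 and 95.3 CPM with Zp3-Cre. In fl/del the high pair of libraries, replicates 3 and 4, shares a name prefix, as does the low pair. Whether a prefix stands for a mouse is not given in the labels, and any part of the animal in this split was not tested.

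**Figure D1:**
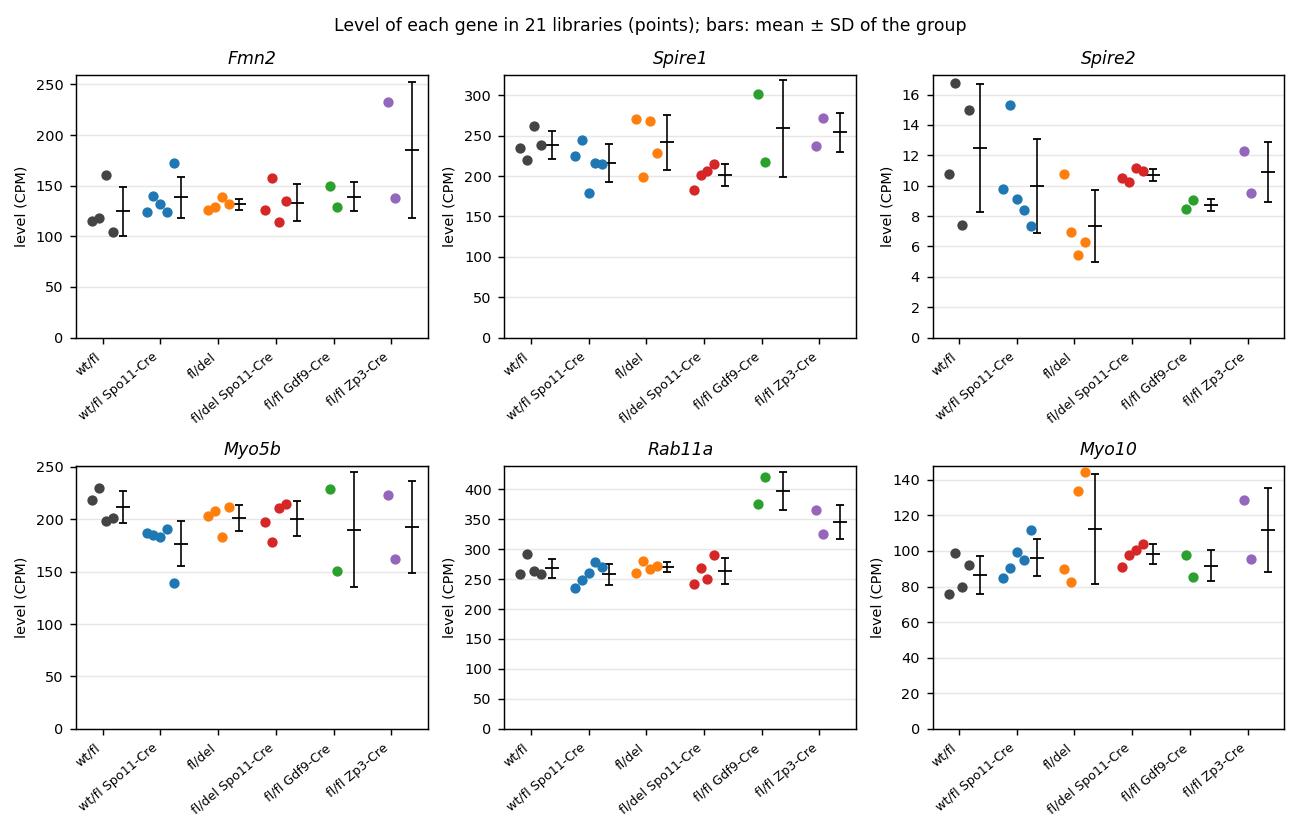
Level of the 6 genes in CPM (vertical axes, from 0) in each of the 21 libraries (points) by genotype and Cre driver, with the group mean and SD beside the points. The 4 fl/fl libraries of Rab11a sit between 325 and 420 CPM, above all 17 others, while the groups of Fmn2 and Myo10 overlap, and those of Spire2 overlap wt/fl.

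Within the Spo11-Cre background, none of the 6 genes passed the test between any genotypes. The 4 groups were fitted together with edgeR's quasi-likelihood test, and p-values were adjusted by Benjamini-Hochberg over 22383 genes. Of the 36 tests, 0 had an adjusted p under 0.05, by edgeR and by DESeq2, and 6 had an unadjusted p under 0.05. Among all genes 2.19% were called between wt/fl Spo11-Cre and wt/fl, 0.0223% between fl/del and wt/fl, and 0.197% between fl/del Spo11-Cre and wt/fl. For fl/del Spo11-Cre the share was 0.0357% against wt/fl Spo11-Cre and 0.241% against fl/del, and it was 0.201% between fl/del and wt/fl Spo11-Cre. With so few genes called, a count of 0 among 6 genes is near the background. An unadjusted p under 0.05 was found for 15.0%, 8.52%, 10.4%, 7.11%, 8.32% and 9.24% of all genes in these pairs, in the same order, and for 1, 2, 1, 0, 1 and 1 of the 6 genes.

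The intervals show which changes remain possible. *Rab11a* had the narrowest, with 95% intervals of the log2 fold change that lay between -0.23 and 0.22 in all 6 pairs, and estimates between -0.06 and 0.05. For *Fmn2* the intervals lay between -0.31 and 0.40, with estimates from -0.09 to 0.18. Those of *Spire2* reached from -1.27 to 1.05, so that changes of more than 2-fold in either direction lay within them for this gene of low count.

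The 6 tests with an unadjusted p under 0.05 concerned 4 genes. *Myo10* was higher in fl/del than in wt/fl by 0.39 on the log2 scale (SE 0.12, adjusted p = 0.375), which was the smallest unadjusted p of the 36, at rank 152 among all genes. This difference did not pass the adjustment, and it shrank to 0.25 without fl/del replicate 4. *Spire2* was lower in fl/del than in wt/fl, with a log2 fold change of -0.73 (SE 0.27, adjusted p = 0.521). *Spire1* was lower in fl/del Spo11-Cre, by -0.25 against wt/fl (SE 0.10, adjusted p = 0.370) and by -0.28 against fl/del (SE 0.10, adjusted p = 0.370). *Myo5b* had a log2 fold change of -0.24 in wt/fl Spo11-Cre against wt/fl (SE 0.09, adjusted p = 0.171) and of 0.18 in fl/del against wt/fl Spo11-Cre (SE 0.09, adjusted p = 0.538).

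Whether Spo11-Cre went with a different change in fl/del than in wt/fl was tested as an interaction. None of the 6 genes passed, by edgeR or DESeq2, against 0.103% of all genes, and 2 had an unadjusted p under 0.05, as 10.3% of all genes did. For *Spire2* the interaction was 0.81 on the log2 scale (95% interval 0.08 to 1.55, adjusted p = 0.426). For *Myo10* it was -0.39 (95% interval -0.73 to -0.05, adjusted p = 0.396). Of the 6 groups, fl/del had the lowest mean of *Spire2*, at 7.34 CPM (SD 2.35), and the highest mean of *Myo10*, at 113 CPM (SD 30.9).

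In fl/fl oocytes *Rab11a* passed the test and the other 5 genes did not. Both late drivers were averaged and compared in a fit of all 21 libraries, with adjustment over 23225 genes. Against wt/fl, *Rab11a* was higher by 0.38 on the log2 scale (SE 0.10, 95% interval 0.18 to 0.57, adjusted p = 0.0202), a fold of 1.30. In this comparison 2.79% of all genes were called and 1.02% were called as higher, and *Rab11a* stood at rank 378. The mean level was 397 CPM with Gdf9-Cre (SD 32.1) and 345 CPM with Zp3-Cre (SD 28.3), against 268 CPM in wt/fl (SD 16.1), which is 148% and 129% of wt/fl. The fit rescales the libraries, unlike these ratios of CPM, with factors from 1.03 to 1.10 in fl/fl and from 0.960 to 1.02 in the other 17 libraries.

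Against fl/del Spo11-Cre, in which *Kif11* is also lost, *Rab11a* was higher in fl/fl by 0.41 (SE 0.10, adjusted p = 0.00797), with 2.90% of all genes called. Both comparisons share the fl/fl libraries and are not independent of each other. Driver by driver, the log2 fold change against wt/fl was 0.49 with Gdf9-Cre (adjusted p = 0.0127) and 0.26 with Zp3-Cre (adjusted p = 0.341), and against fl/del Spo11-Cre it was 0.53 (adjusted p = 0.00734) and 0.29 (adjusted p = 0.218). The difference between the drivers themselves was 0.24 (95% interval -0.04 to 0.52, adjusted p = 0.785), so a difference between them was not shown.

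The call of *Rab11a* depended on the size of the fit and on single libraries. It was lost in a fit of only the compared groups (adjusted p = 0.126 against wt/fl and 0.0681 against fl/del Spo11-Cre). Another run summed libraries of the Spo11-Cre background that share a name prefix. The labels do not say whether a prefix stands for a mouse. The fl/fl libraries, which are named by their driver, stayed separate. The call was lost in that run as well (adjusted p = 0.189 against wt/fl and 0.130 against fl/del Spo11-Cre). Against wt/fl it was also lost without wt/fl replicate 1, wt/fl replicate 4, fl/fl Gdf9-Cre replicate 2 or fl/fl Zp3-Cre replicate 1 (adjusted p = 0.0577, 0.0652, 0.0886 and 0.0516), while the log2 fold change stayed between 0.34 and 0.43. The follicle cell markers gave no call in this comparison, with 0 of 11 tested genes passing by edgeR and 2 at an unadjusted p under 0.05. Apart from *Cyp19a1* and *Nr5a2*, the tested markers had between 18 (*Amh*) and 350 (*Star*) counts over all 21 libraries. A change in markers of so few counts could hardly be called. Of the 12 oocyte markers, 2 zona pellucida genes were lower, *Zp1* (-0.47, adjusted p = 0.00483) and *Zp3* (-0.32, adjusted p = 0.0418), and *Zp3* was also lower against fl/del Spo11-Cre (-0.34, adjusted p = 0.0216). Their part in the result of *Rab11a* was not tested.

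Of the other genes, *Fmn2* had a log2 fold change of 0.27 in fl/fl against wt/fl (SE 0.13, adjusted p = 0.327). It passed without fl/fl Zp3-Cre replicate 2 (log2 fold change 0.43, adjusted p = 0.0335), which leaves the library with the highest *Fmn2* level as the lone Zp3-Cre library. *Myo5b* was at -0.24 (SE 0.11, adjusted p = 0.328), *Spire2* at -0.44 (SE 0.27, adjusted p = 0.466), *Myo10* at 0.14 (SE 0.13, adjusted p = 0.705) and *Spire1* at 0.02 (SE 0.11, adjusted p = 0.9998). Against fl/del Spo11-Cre, *Spire1* was at 0.27 (SE 0.11, adjusted p = 0.230). An unadjusted p under 0.05 was found for 3 of the 6 genes against wt/fl and for 2 against fl/del Spo11-Cre, beside 14.3% and 14.0% of all genes. Between the drivers, 0 of the 6 genes passed by edgeR or DESeq2 and 0 had an unadjusted p under 0.05, against 0.891% and 7.14% of all genes.

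**Figure D2:**
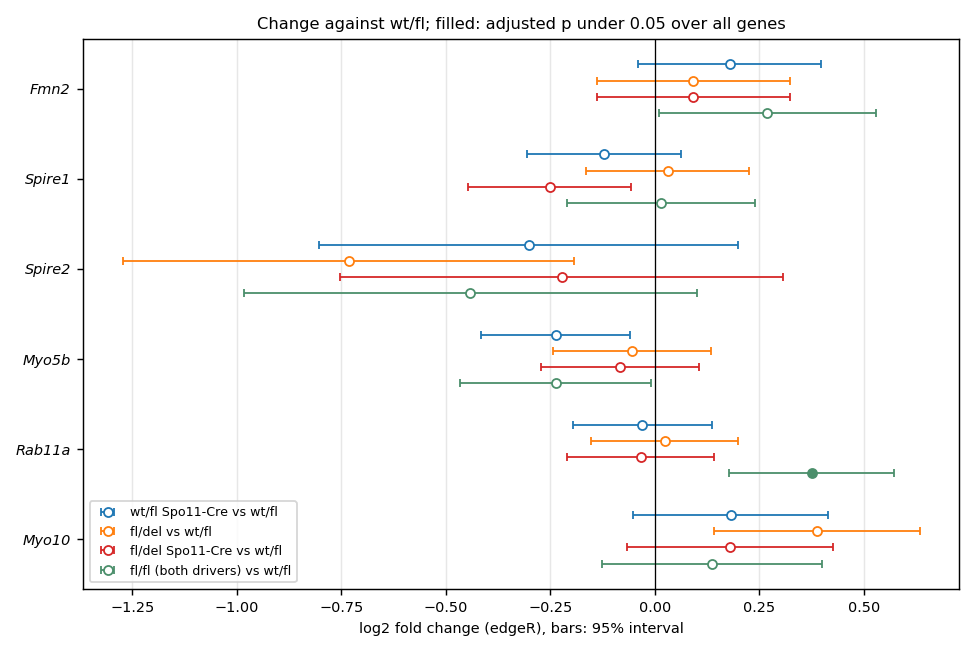
Log2 fold change of the 6 genes against wt/fl (horizontal axis, edgeR) for 3 genotypes of the Spo11-Cre background and for fl/fl with both late drivers, with 95% intervals as bars. Of the 24 points, the filled point of Rab11a in fl/fl, at 0.38, has an adjusted p under 0.05.

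Each gene was set beside its relatives of the same family. *Spire1* held 88.0% of the summed Spire TPM (SD 3.31, n = 21) and *Spire2* 12.0%, with a lowest *Spire2* share of 5.89% in fl/del and a highest of 19.1% in wt/fl. Of the class V myosins, *Myo5b* held 81.8% (SD 2.35), *Myo5a*, the motor of pigment granules, 17.3%, and *Myo5c* 0.975%. Of the Rab11 genes, *Rab11a* held 86.8% (SD 2.93), *Rab25*, known from epithelial cells, 11.0% and *Rab11b* 2.22%. Without Cre, the *Rab11a* share was 84.6% for wt/fl and 88.2% for fl/del, and with Spo11-Cre it was 84.7% and 87.2%. It was 90.9% for fl/fl Gdf9-Cre and 88.6% for fl/fl Zp3-Cre, and the libraries of fl/fl and fl/del overlapped. The share in fl/del was higher with hardly any difference in *Rab11a* itself, whose mean was 268 CPM in wt/fl and 270 CPM in fl/del. Mean *Rab25* was 23.4 CPM in wt/fl and 15.6 CPM in fl/del. In each of these 3 families the same gene led in all 21 libraries.

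The formins were divided more evenly. *Fhod3*, known for its part in muscle sarcomeres, held 28.9% of the summed TPM of 15 formin genes (SD 1.90), and *Fmn2* followed with 19.8% (SD 2.42). *Fmnl3* held 16.9%, *Daam1* 15.7%, *Diaph3* 8.89% and *Diaph1* 7.84%, and the other 9 formins held under 1% each. In TPM, *Fhod3* was at 61.4 (SD 11.0) and *Fmn2* at 41.9. With Zp3-Cre the *Fmnl3* share was 26.4% (24.7% and 28.2% in the libraries), above that of every other library, of which the highest had 19.6%. How many of all genes set the Zp3-Cre libraries apart in this way was not counted. A share also depends on the other formins in the sum.

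**Figure D3:**
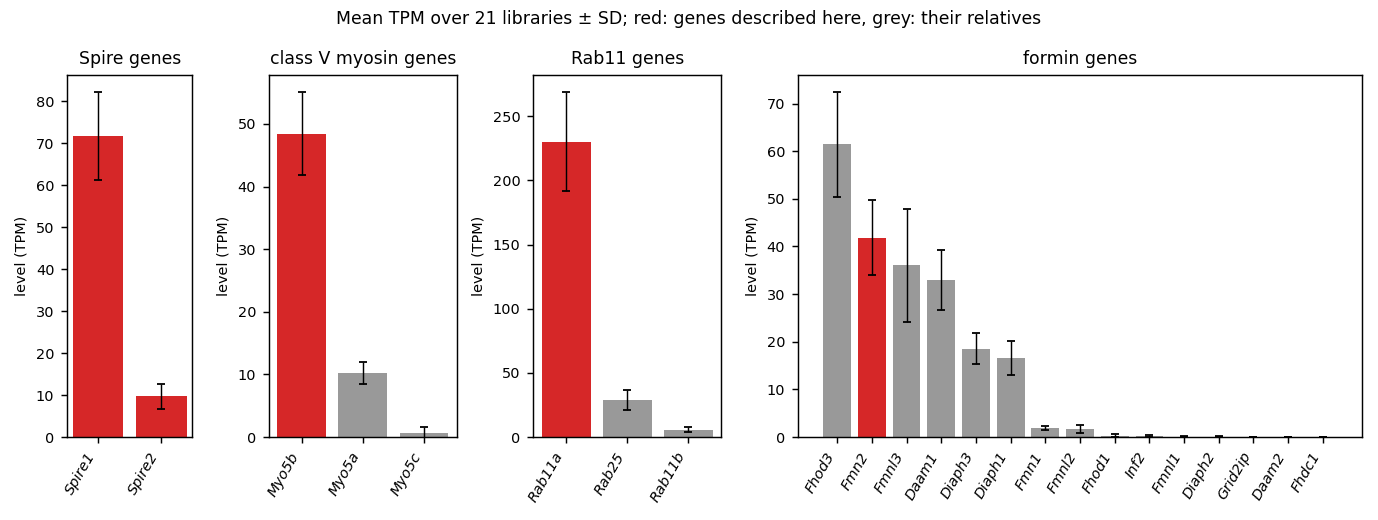
Mean level in TPM over 21 libraries (bars, with the SD) of the Spire, class V myosin, Rab11 and formin genes, with the genes followed here in red and their relatives in grey. Spire1, Myo5b and Rab11a lead their families with 88.0%, 81.8% and 86.8% of the TPM, while Fmn2 is second to Fhod3 among the formins.

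The wider actin machinery was described by 4 lists with 53 genes, which cover other formins, partners of myosin V and Rab11, actin and its regulators, and cortical polarity with myosin. In the 6 pairs of the Spo11-Cre background, 51 of these genes were tested, and 0 of 306 tests passed by edgeR. An unadjusted p under 0.05 was found in 43 tests over all pairs, beside 7.11% to 15.0% of all genes in single pairs. In most pairs the share among the list genes was above that of all genes, and this excess was not tested. In fl/fl against wt/fl, 2 genes were higher and 2 lower, where 2.79% of all genes were called. They were in the list of actin and its regulators (3 of 18 genes) and that of cortical polarity (1 of 11), while 0 of 13 tested formins passed, with 1 at an unadjusted p under 0.05, and 0 of 10 partners, with 1 at an unadjusted p under 0.05. The median log2 fold change was -0.11 for actin and its regulators, 0.12 for cortical polarity, 0.12 for the formins and -0.07 for the partners, beside -0.03 over all genes tested.

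The cofilins, which sever and disassemble actin filaments, moved in opposite directions. *Cfl1* ranged from 498 to 555 CPM in wt/fl and from 367 to 440 CPM in fl/fl, and fell by 0.45 on the log2 scale (SE 0.09, adjusted p = 0.00178). *Cfl2* ranged from 179 to 207 CPM in wt/fl and from 280 to 321 CPM in fl/fl, and rose by 0.50 (SE 0.10, adjusted p = 0.00147). *Rhoa*, the GTPase that drives contractile rings, fell by 0.56 (SE 0.13, adjusted p = 0.00701), from 49.99 to 59.8 CPM in wt/fl to 35.0 to 46.5 CPM in fl/fl. *Wasl*, which activates the Arp2/3 nucleator, rose by 0.37 (SE 0.11, adjusted p = 0.0491), from 100.1 to 115 CPM to 119 to 160 CPM. The call of *Wasl* was kept in 4 of 18 alternatives, that of *Cfl1* in 16, of *Cfl2* in 17 and of *Rhoa* in 14, with no change of direction. *Cfl1* was lost in a fit of only the compared groups and with Zp3-Cre alone, and *Cfl2* when libraries were summed by name prefix. *Rhoa* was lost under these 3 alternatives and without fl/fl Zp3-Cre replicate 1.

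Against fl/del Spo11-Cre, *Cfl1* (-0.36, adjusted p = 0.0172), *Cfl2* (0.48, adjusted p = 0.00239) and *Rhoa* (-0.55, adjusted p = 0.00891) also passed, and so did the formin *Fmnl3* (0.52, SE 0.14, adjusted p = 0.0187), where 2.90% of all genes were called. The call of *Cfl1* was kept there in 8 of 18 alternatives and that of *Fmnl3* in 11, and *Fmnl3* was at 0.05 with Gdf9-Cre alone (adjusted p = 0.988) and at 0.99 with Zp3-Cre alone. The level of *Fmnl3* differed between the drivers, at 75.4 and 62.5 CPM with Gdf9-Cre and 163 and 110 CPM with Zp3-Cre (log2 fold change of Gdf9-Cre against Zp3-Cre -0.94, SE 0.20, adjusted p = 0.00378). Diaphanous formin *Diaph1* was the reverse, at 70.1 and 58.4 CPM with Gdf9-Cre and 44.1 and 27.8 CPM with Zp3-Cre (0.88, SE 0.21, adjusted p = 0.0196). *Wasf2*, a subunit of the WAVE complex that also activates Arp2/3, was at 125 and 157 CPM with Gdf9-Cre and at 86.7 and 43.6 CPM with Zp3-Cre (1.16, SE 0.19, adjusted p = 0.000110). Each driver is represented by 2 libraries, and in a fit of the drivers alone 7 genes were called in place of 207, without these 3. The size of the differences depended on single libraries, and for *Fmnl3* and *Diaph1* so did the call. Each such run leaves a single library of a driver, so only the effect sizes are given. When a library of a driver was left out, the log2 fold change ranged from -1.16 to -0.68 for *Fmnl3* and from 0.63 to 1.20 for *Diaph1*. For *Wasf2* it ranged from 0.78 to 1.68.

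**Figure D4:**
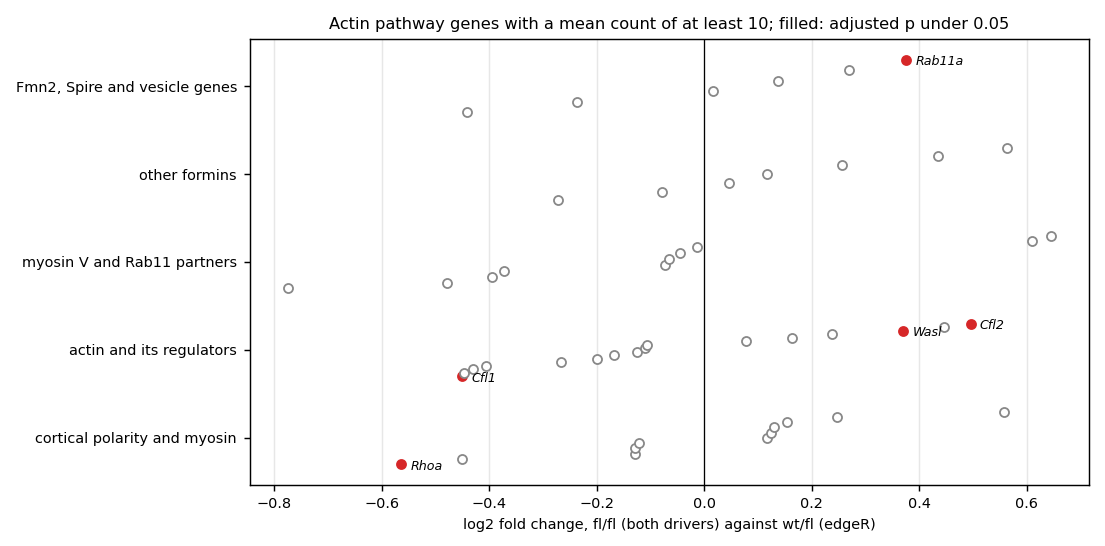
Log2 fold change in fl/fl with both late drivers against wt/fl (horizontal axis, edgeR) for the 6 genes and for the genes of 4 actin lists with a mean count of at least 10, one point per gene. The 5 filled points, Rab11a, Wasl, Cfl2, Cfl1 and Rhoa, have an adjusted p under 0.05 over all genes.

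As a description, the 2 genes with the most similar pattern were listed for each gene, by Pearson's r of log2(CPM + 1) over the 21 libraries among 8525 genes with a mean count of at least 100. The closest to *Rab11a* were *Tm2d1* (r = 0.93) and *Dcun1d5* (r = 0.89), with r = 0.64 and 0.67 after the group means were removed. For *Fmn2* they were the ribosomal protein genes *Rpl14* (r = 0.81) and *Rps24* (r = 0.81), and for *Spire1* *Fam221b* (r = 0.77) and *Yipf6* (r = 0.74). *Spire2* was closest to *Cox18* (r = 0.75) and *Thoc6* (r = 0.73), *Myo5b* to *Nin* (r = 0.80) and *Samhd1* (r = 0.78), and *Myo10* to *Csrnp2* (r = 0.84) and *Tulp3* (r = 0.81). None of the 6 genes was among the closest genes of another. Between the 6 genes themselves, r ranged from -0.29 for *Spire2* and *Myo10* to 0.41 for *Fmn2* and *Myo10*, and it was -0.09 for *Spire1* and *Spire2*. All these values share the libraries and their depth.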

How the data were processed

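Poly(A) RNA was amplified as full-length cDNA and sequenced as paired-end reads of 150 bp. Per the labels and methods, the authors used fastp for trimming, HISAT2 2.2.1 for alignment to GRCm38, and counted uniquely mapped reads with featureCounts 2.0.3 on Ensembl release 93. The sequencing of the 4 fl/fl libraries is not described in the sources used here. The deposited counts are raw and whole, and the table with *Kif11* counted over all exons was used. Within a library, the deposited TPM values are proportional to counts divided by the merged exonic length, checked for all 6 genes. The strand setting of the counting is not given in the sources used here. A second table of counts, used as an alternative, is lower by a median ratio of 1.95 over genes (5th to 95th percentile 1.78 to 1.99), but 1.73 for *Rab11a*. Tables with *Kif11* counted over its first exon were not used.

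The genes and lists were chosen with earlier results of these data known. Groups were compared with edgeR 4.0.16 in R 4.3.3 (TMM library sizes, glmQLFit, glmQLFTest) after removal of genes counted in fewer than 3 fitted libraries, with Benjamini-Hochberg adjustment and a threshold of 0.05. Genotypes of the Spo11-Cre background were fitted on their 17 libraries, and fl/fl comparisons on all 21. Intervals cover 95%. Named are the 6 genes, *Kif11*, the genes of the families, at most 4 called list genes per comparison with a mean count of at least 10, and the 2 most similar genes. The alternatives were RLE sizes, DESeq2 1.42.0, no filter, filterByExpr, the second table, other sets of libraries, a replicate block, sums by name prefix and leaving out each library, and for levels TMM sizes, TPM and medians. The late drivers alone were added after the data were seen. Python 3.11.15 with pandas 2.3.3, numpy 2.4.6 and matplotlib 3.10.9 was used otherwise, and the code was tested on simulated data.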

Additional observations from a re-analysis of the deposited data

Results flagged for a closer look

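In the 4 groups of 4 or 5 libraries, the lowest and highest library were set against the range of their group for the total count and for each of the 6 genes, in 28 checks. In 2 checks a library stood apart, where chance gives about 1 in 20. The *Myo5b* level of wt/fl Spo11-Cre replicate 5, at 139.0 CPM, was far below the other 4 libraries of the group, at 183 to 190 CPM. Without it, *Myo5b* differed between wt/fl Spo11-Cre and wt/fl by a log2 fold change of -0.17. The total count of fl/del replicate 3, at 7205010, was the lowest of all libraries, and this library also had the lowest *Spire2* level (39 counts) and the second highest *Myo10* level.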

How the results depend on the processing

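In the 6 pairs of the Spo11-Cre background, in the interaction and between the late drivers, no alternative run made any of the 6 genes pass, leaving out single libraries included. In fl/fl against wt/fl the count of called genes fell to 0 in a fit of only the compared groups, with sums by name prefix and with Zp3-Cre alone, and was between 0 and 2 when single libraries were left out. Against fl/del Spo11-Cre it was 0 under the same 3 alternatives. *Rab11a* kept its direction throughout, from 0.34 to 0.43 against wt/fl without single libraries. Its log2 fold change was 0.39 (adjusted p = 0.0141) with RLE sizes, 0.39 (6.7e-05) with DESeq2 and 0.34 (0.0407) with the second table of counts.

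No called difference of the 6 genes turned direction, and these others did. With the replicate block, log2 fold changes in fl/del Spo11-Cre against wt/fl Spo11-Cre became 0.020 for *Fmn2*, 0.023 for *Rab11a* and 0.073 for *Myo10*, that of *Fmn2* became 0.020 in fl/del against wt/fl Spo11-Cre and -0.00045 in fl/del Spo11-Cre against fl/del, and that of *Myo10* became 0.067 in fl/fl against fl/del Spo11-Cre. *Fmn2* in fl/del Spo11-Cre against fl/del was also -0.0035 with RLE sizes, -0.0036 with DESeq2, -0.0052 with filterByExpr, -0.00078 in a fit of only the compared groups and -0.0023 with all 21 libraries. *Myo10* in fl/del Spo11-Cre against wt/fl Spo11-Cre was 0.00047 with RLE sizes and 0.00052 with DESeq2. *Spire1* in fl/del against wt/fl was -9.1e-05 with sums by name prefix. With the second table *Rab11a* was -0.0066 in fl/del against wt/fl and 0.0051 in the interaction. With Zp3-Cre alone *Spire1* was -0.013 against wt/fl and *Myo10* 0.082 against fl/del Spo11-Cre, and with Gdf9-Cre alone *Fmn2* was -0.0024 against fl/del Spo11-Cre.

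When single libraries were left out, log2 fold changes that crossed 0 ranged as follows. In wt/fl Spo11-Cre against wt/fl they went for *Rab11a* from -0.057 to 0.012. In fl/del against wt/fl they went for *Spire1* from -0.036 to 0.10 and *Rab11a* from -0.0072 to 0.066. In fl/del Spo11-Cre against wt/fl they went for *Fmn2* from -0.0020 to 0.25 and *Rab11a* from -0.074 to 0.0079. In fl/del Spo11-Cre against wt/fl Spo11-Cre they went for *Fmn2* from -0.18 to 0.018, *Spire2* from -0.0061 to 0.28, *Rab11a* from -0.046 to 0.028 and *Myo10* from -0.049 to 0.071. In fl/del Spo11-Cre against fl/del they went for *Fmn2* from -0.10 to 0.067 and *Myo5b* from -0.076 to 0.02. In fl/del against wt/fl Spo11-Cre they went for *Fmn2* from -0.13 to 0.017. In fl/fl against wt/fl they went for *Spire1* from -0.10 to 0.13. In fl/fl against fl/del Spo11-Cre they went for *Fmn2* from -0.00051 to 0.33 and *Myo10* from -0.13 to 0.044. In fl/fl Gdf9-Cre against fl/fl Zp3-Cre they went for *Fmn2* from -0.66 to 0.011 (without fl/fl Zp3-Cre replicate 1, against -0.36 with all libraries), *Spire1* from -0.20 to 0.28 and *Myo5b* from -0.31 to 0.29. In the interaction they went for *Rab11a* from -0.072 to 0.0045.

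In the Spo11-Cre background, the deviations of same-numbered libraries from their group means had a median r of 0.021 over 24 pairs, 5 of them over 0.1. Pairs with other numbers had a median r of -0.0056, with 10 of 84 over 0.1. As these r were small, replicate numbers were not taken as pairs. With the replicate block *Rab11a* stayed called in fl/fl against wt/fl (0.39, adjusted p = 0.0258) and against fl/del Spo11-Cre (0.43, adjusted p = 0.0104), and genes called in fl/del against wt/fl rose from 5 to 96. Over all alternatives, leaving out single libraries included, that count was between 1 (without fl/del replicate 3) and 96. Called genes ranged from 179 (without wt/fl replicate 2) to 931 in wt/fl Spo11-Cre against wt/fl (491 reported), from 29 to 230 in fl/del Spo11-Cre against wt/fl (44), from 3 to 39 against wt/fl Spo11-Cre (8), and from 37 to 143 against fl/del (54). They ranged from 20 to 116 in fl/del against wt/fl Spo11-Cre (45), from 2 to 138 in the interaction (23), from 233 to 1353 in fl/fl against wt/fl (647), from 299 to 1263 in fl/fl against fl/del Spo11-Cre (673), and from 7 to 398 between the drivers (207), with each of these 3 highest counts found without fl/fl Zp3-Cre replicate 2. The cause of these shifts was not tested. Depth limits *Spire2* most, with as few as 39 counts in a library.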
